A study of Mus musculus with 24 samples.

Results

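The 5 adipokine genes Lep, Adipoq, Retn, Cfd and Rbp4 were taken as listed by name, and every Rev-erbα site from 20 kb upstream to 20 kb downstream of each gene body was collected from 3 deposited lists (mm9 coordinates, GENCODE vM1 gene models). They are 5 of 22350 protein-coding genes on chromosomes 1 to 19 and X. Their windows, 240.0 kb in all, held 9 of 9016 eWAT peaks, 3 of 10687 brain peaks and 98 of 245360 liver borders. Because no value per library was at hand, all values below are counts and positions in these lists, and no test over samples could be made.

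Adipokines are proteins that fat cells release into the blood. Leptin (Lep) tells the hypothalamus how much fat is stored, adiponectin (Adipoq) raises insulin sensitivity, resistin (Retn) opposes insulin action in mice, adipsin (Cfd, complement factor D) is a serine protease of the alternative complement pathway, and Rbp4 carries retinol and is made mainly by the liver as well as by fat. Rev-erbα (gene Nr1d1) is a heme-binding nuclear receptor of the circadian clock that represses genes with the NCoR and HDAC3 corepressors, and it binds DNA through an AGGTCA core with an AT-rich flank, or through other DNA-bound factors.

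Of 24 samples in 16 groups, 5 libraries belong to the 3 groups whose lists were used here. All were precipitated with an antibody to Rev-erbα: 2 ChIP-seq libraries from the epididymal fat pad (eWAT, a white adipose tissue), 1 ChIP-seq library from brain, taken from the ventral tegmental area, and 2 ChIP-exo libraries from liver. In ChIP-exo an exonuclease digests each DNA strand up to the crosslinked protein, which leaves a border on that strand. The mice of all 3 groups were labelled strain C57BL/6 and genotype C57BL/6J Wild Type, were sampled at zeitgeber time 10 (10 h after lights on), and were profiled with the same antibody. Neither the labels nor the lists state age, sex or the number of animals behind a library. The tissues are mixtures of cell types, so a site in eWAT cannot be assigned to adipocytes, and the lists hold binding sites only, so adipocyte, neuron or hepatocyte transcripts could not be checked.

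All 5 adipokine genes had an eWAT peak in their window, against 28.7% of all protein-coding genes. Adipoq, Retn, Cfd and Rbp4 had 2 eWAT peaks each, a number reached by 9.44% of all genes, and Lep had 1. Brain peaks were listed for Adipoq (2) and Lep (1) only, that is for 2 of 5 genes, which is near the share of all genes (41.5%). Retn, Cfd and Rbp4 thus had an eWAT peak and no brain peak, a pattern found for 11.2% of all genes. Liver borders lay in all 5 windows, but 87.7% of all genes had one, so this count lies near the background. The count followed the window chosen. Within 5, 10 and 50 kb of the gene body, 3, 5 and 5 of the genes had an eWAT peak, against 18.9%, 22.5% and 43.3% of all genes. For brain peaks the counts were 2, 2 and 3, against 30.6%, 34.8% and 54.8%, and for liver borders 4, 5 and 5, against 78.0%, 82.7% and 93.6%. The eWAT counts thus lay above the background at each width, and the brain counts near it. The widths are nested, so 5 of 5 within 10 kb fixes the eWAT counts at 20 and 50 kb. Within 20 kb of a start, 5 genes had an eWAT peak, against 22.1% of all genes. With only peaks at or above the list median score, 4 had one, against 18.5%, and with only peaks for which the gene has the nearest start, also 4, against 18.8%. For brain these were 0, against 32.3%, and 2, against 26.6%. The windows were not long ones, with 41.8 kb for Cfd, 44.3 kb for Retn, 48.7 kb for Rbp4, 51.5 kb for Adipoq and 53.7 kb for Lep, against a median of 55.4 kb over all genes. Per 10 kb the 5 windows together held 0.375 eWAT peaks, 0.125 brain peaks and 4.08 liver borders, against 0.0342, 0.0405 and 0.929 over the whole of the chromosomes, gene deserts included.

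**Figure D1:**
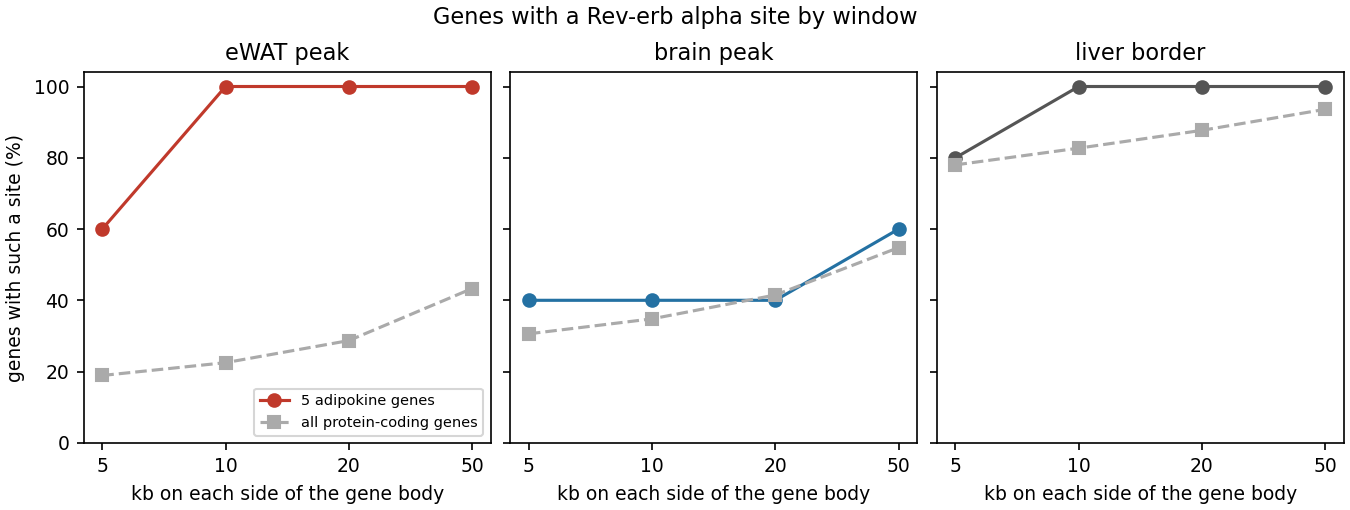
Percentage of genes with at least 1 eWAT peak, brain peak or liver border (panels) by distance on each side of the gene body in kb; circles with solid lines are the 5 adipokine genes and grey squares with dashed lines all 22350 protein-coding genes. At 20 kb all 5 adipokine genes had an eWAT peak against 28.7% of all genes, whereas their brain count of 2 lay near the 41.5% of all genes.

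Adiponectin had the eWAT peaks placed most clearly at the gene itself. The first lay immediately upstream of the start (chr16:23146430-23146579), with its centre 105 bp before the first annotated base and its edge 30 bp from it. The second lay in the first intron (chr16:23151585-23151734), 5050 bp after the start. Both had a score of 19.2, which is 19 steps of the eWAT scale, and 28.0% of all eWAT peaks scored higher. Each held the short NF1 motif TTGGC, in capitals in the 2 sequences that follow (GCCAA where it is on the other strand), and neither held a GGTCA. They are shown because Adipoq was the only one of the 5 genes with 2 eWAT peaks nearest to its own start.
Adipoq start (+ strand): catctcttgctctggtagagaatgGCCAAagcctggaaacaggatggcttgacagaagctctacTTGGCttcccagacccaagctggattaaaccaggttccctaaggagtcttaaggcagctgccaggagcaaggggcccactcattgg
Adipoq intron (+ strand): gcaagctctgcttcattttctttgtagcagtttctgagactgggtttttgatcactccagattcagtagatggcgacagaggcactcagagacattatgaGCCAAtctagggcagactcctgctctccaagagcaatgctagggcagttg
The brain peaks of this window were elsewhere. One (chr16:23127761-23127910) lay 25 bp upstream of the start of Rfc4, a subunit of the clamp loader of DNA replication, 18774 bp before Adipoq. The other (chr16:23159574-23159723) lay 1473 bp beyond the end of Adipoq. Both scored 21.8, or 6 steps of the brain scale, and 65.4% of brain peaks scored higher.

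Leptin had 1 eWAT peak, 8000 bp beyond the end of the gene (chr6:29031877-29032026, intergenic), and none at its promoter. Its score of 13.2 (13 steps) was exceeded by 55.7% of eWAT peaks. The only brain peak (chr6:29005092-29005241) was intergenic as well, on the other side of the gene, 5054 bp upstream of the start, with a score of 21.8 (6 steps). The 2 peaks lay 26785 bp apart. No other protein-coding gene reaches into this window, and both sites had Lep as their nearest start. For the eWAT site this was another annotated start of Lep, 16489 bp away, while the first one was 21731 bp away. The eWAT site is printed as the sole fat site of the leptin gene, and it had no match to any motif searched.
Lep downstream (+ strand): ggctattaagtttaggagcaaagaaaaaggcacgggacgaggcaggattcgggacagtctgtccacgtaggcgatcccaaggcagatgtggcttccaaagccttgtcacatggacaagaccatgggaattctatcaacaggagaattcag

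Resistin had a weak eWAT peak in its last intron and a stronger one further downstream. The intronic peak (chr8:3658890-3659039) lay 3194 bp after the start, in the intron of the longer of 2 annotated transcripts, and its score of 12.2 (12 steps) was exceeded by 64.9% of eWAT peaks. The downstream peak (chr8:3672359-3672508) had the highest score of all 9 eWAT peaks, 27.4 (27 steps), with 13.4% of eWAT peaks higher. It lay 12249 bp past the end of Retn, and its nearest start was that of Trappc5, a subunit of the TRAPP vesicle-tethering complex, 3866 bp away. It was also the eWAT site with the closest liver borders. A plus border of signal 0.438 lay 13 bp from its centre, and a minus border of signal 0.733 lay 3 bp further on, too close to count as a pair. Both sequences are printed for the contrast between a site with liver borders and one without. The bases from the plus to the minus border are in capitals in the second, and neither site had a match to a motif searched within 50 bp of its centre.
Retn intron (+ strand): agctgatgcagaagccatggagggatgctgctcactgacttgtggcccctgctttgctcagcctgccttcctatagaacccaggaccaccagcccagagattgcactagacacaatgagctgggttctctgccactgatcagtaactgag
Retn downstream (+ strand): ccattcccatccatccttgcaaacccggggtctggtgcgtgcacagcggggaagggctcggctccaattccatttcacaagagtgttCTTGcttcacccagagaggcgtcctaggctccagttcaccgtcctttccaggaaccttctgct

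Adipsin, like adiponectin, had an eWAT peak at its start. The peak (chr10:79353602-79353751) was centred in the coding part of the first exon, 78 bp after the start, and its score of 15.2 (15 steps) was exceeded by 43.9% of eWAT peaks. A GGTCA lay 25 bp before its centre, in capitals below, and this was the only GGTCA within 50 bp of the centre of any of the 12 peaks. The core was preceded by G and not by A, so it is no match to AGGTCA. The sequence is printed for this match and runs from the last part of the 5′ untranslated region to the end of the peak.
Cfd start (+ strand): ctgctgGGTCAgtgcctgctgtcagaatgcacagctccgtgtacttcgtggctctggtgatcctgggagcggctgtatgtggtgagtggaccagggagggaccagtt
A second eWAT peak of the window (chr10:79340049-79340198) scored higher, at 24.3 (24 steps, exceeded by 17.2% of eWAT peaks), and lay in an intron of Prtn3, which encodes a neutrophil serine protease, 13475 bp upstream of Cfd. Elane, the neutrophil elastase gene, lies between them. In all, 5 other protein-coding genes reach into the Cfd window, the most of any of the 5 windows.

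Rbp4 had no eWAT peak nearest to its own start. Both eWAT peaks of its window belonged by nearest start to Ffar4 (annotated as O3far1), the receptor for long-chain omega-3 fatty acids, whose gene lies next to Rbp4. One (chr19:38171431-38171580) lay 64 bp upstream of the Ffar4 start, with a score of 14.2 (14 steps, exceeded by 49.2% of eWAT peaks), at the far edge of the Rbp4 window. The other (chr19:38181730-38181879) was centred in an intron of Ffar4, 9231 bp past the end of Rbp4, with a score of 10.1 (10 steps), the lowest in the eWAT list. The Ffar4 site was the most GC-rich of the 9 eWAT peaks, with 69.3% G and C within 50 bp of its centre, and is printed up to the base before the Ffar4 start. The TTGGC in capitals crosses the limit of 50 bp from the centre and is not counted below.
Ffar4 start (+ strand): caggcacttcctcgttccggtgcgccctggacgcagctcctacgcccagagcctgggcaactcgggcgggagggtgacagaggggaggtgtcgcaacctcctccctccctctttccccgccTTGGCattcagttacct

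**Figure D2:**
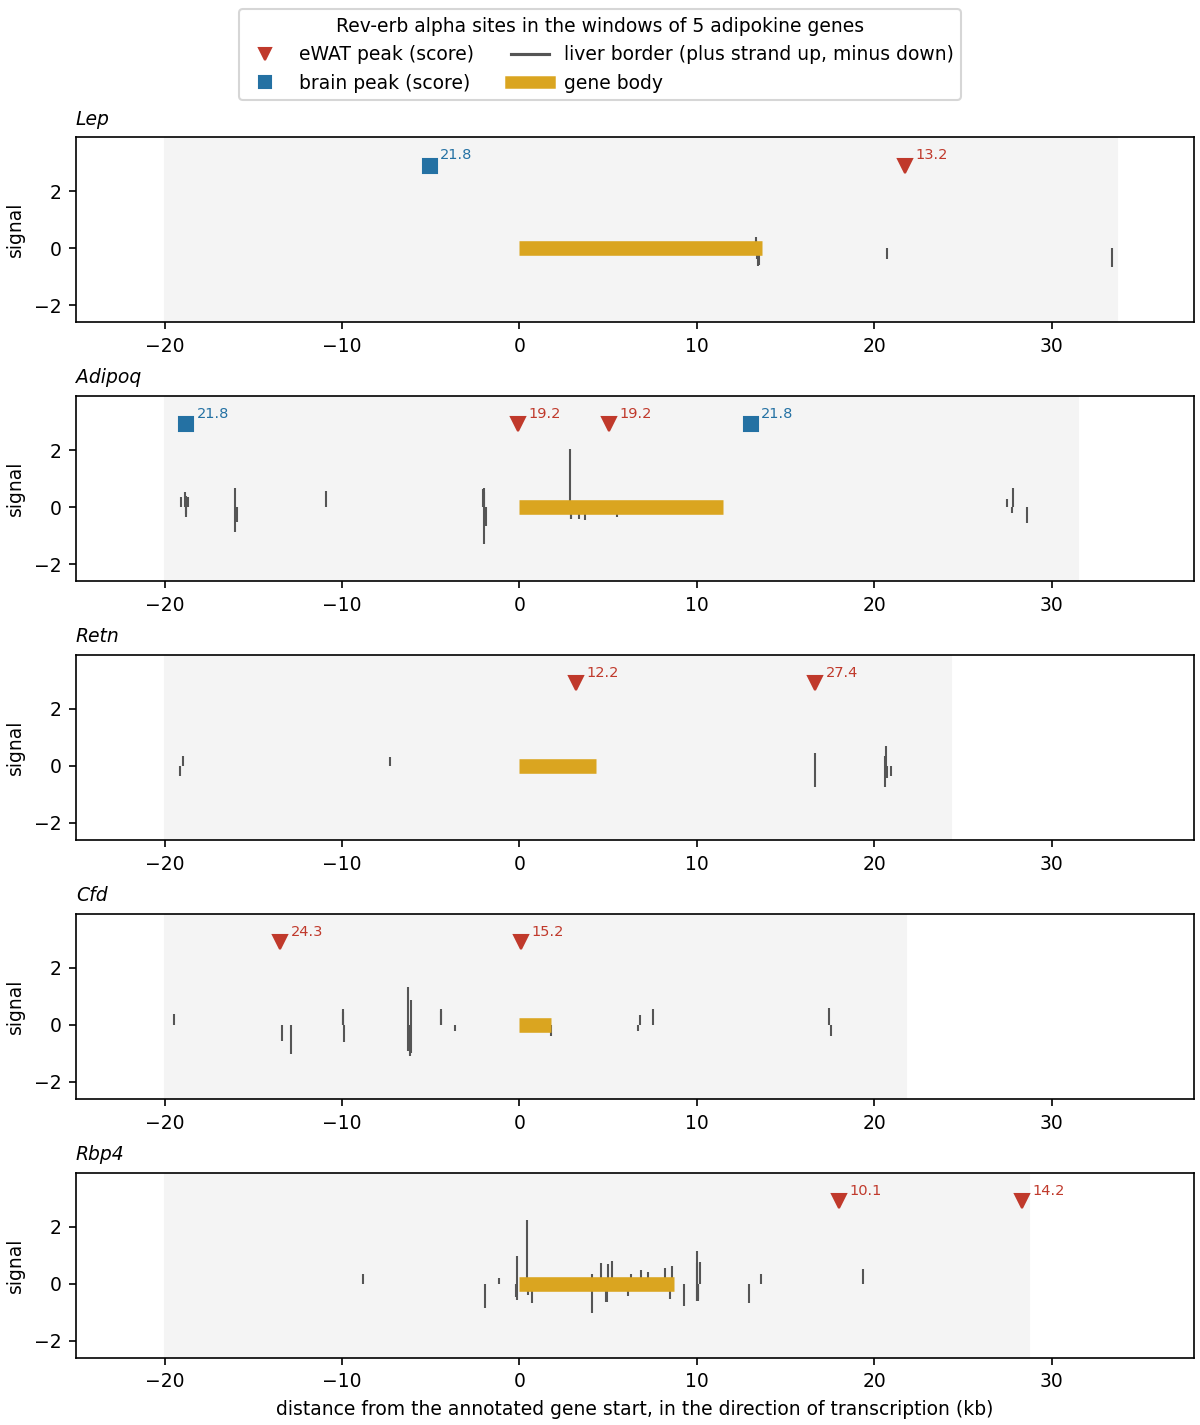
Sites around each adipokine gene by distance from the annotated start in kb, in the direction of transcription; the grey area is the window, the thick bar the gene body, triangles are eWAT peaks and squares brain peaks with their scores, and vertical lines are liver borders (height: the authors' signal; up: plus strand of the genome, down: minus strand). Adipoq and Cfd have an eWAT peak at the start, and Rbp4 has 17 of its 34 liver borders within the gene body and both eWAT peaks beyond its end.

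By score, the adipokine sites were ordinary members of the eWAT list. The 9 scores ran from 10.1 to 27.4, against a list that ran from 10.1 to 281.6 with a median of 14.2. Lep, with 13.2, was the only gene whose best eWAT peak in the window scored below that median. The best peaks of Retn, Cfd and Rbp4, however, had their nearest starts at Trappc5, Prtn3 and Ffar4. Peaks nearest to the named gene's own start scored 19.2 at Adipoq, 15.2 at Cfd, 13.2 at Lep and 12.2 at Retn. Rbp4 had no such peak. Ranked by the best eWAT peak in the window, 1282 of the 22350 genes came before Retn, 1581 before Cfd, 2355 before Adipoq, 3735 before Rbp4 and 4126 before Lep. The order rests on few units. Scores in eWAT come in whole steps of 1.01 and in brain of 3.64. Neighbours in the order differed by 3 steps (Retn and Cfd), 5 steps (Cfd and Adipoq, and Adipoq and Rbp4) and 1 step (Rbp4 and Lep), with no replicate values to set a spread. The 3 brain peaks had the same score of 21.8, below the brain median of 25.5. A peak of 6 steps stands close to the lowest of that list (4 steps).

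**Figure D3:**
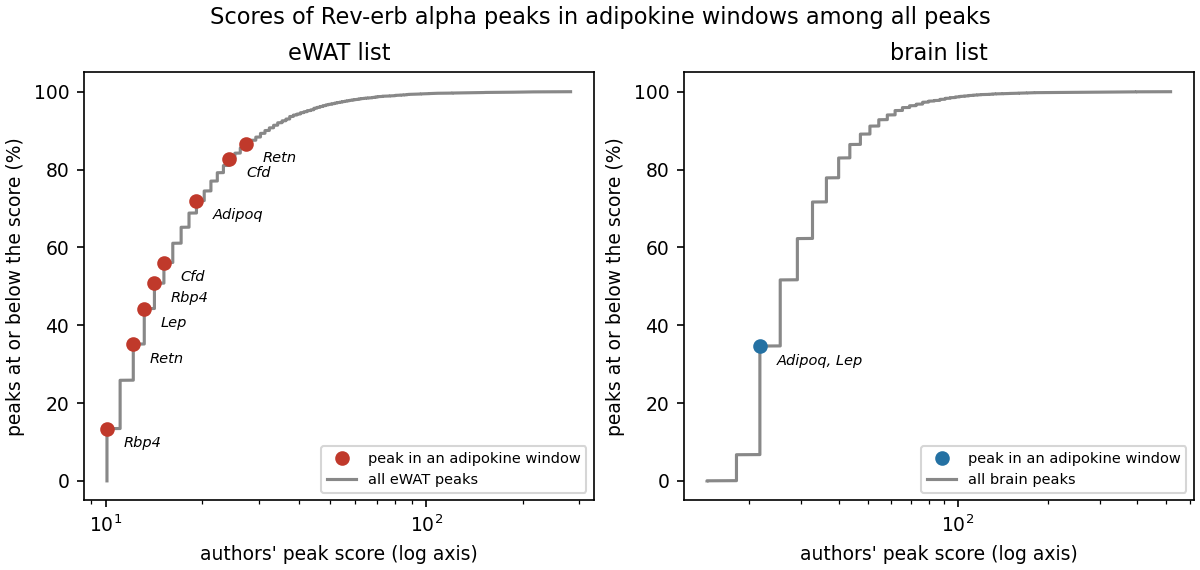
Cumulative share of peaks (vertical axis, %) by the authors' score (horizontal log axis) in the eWAT list, left, and the brain list, right; filled circles are the peaks in adipokine windows, labelled by gene, and the grey line is the whole list. The 9 eWAT peaks lie between 10.1 and 27.4 and the 3 brain peaks all at 21.8.

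An eWAT peak centre lay within 1 kb of a start for 2 of 5 genes, Adipoq and Cfd, against 3.58% of all genes. A brain peak lay there for 0 of 5, against 18.3%, and a liver border for 1 of 5, Rbp4, against 54.9%. None of the 12 peaks overlapped a peak of the other tissue, where 7.83% of all eWAT peaks and 6.61% of all brain peaks did. With 9 and 3 peaks, a count of 0 is close to those shares. The nearest brain peak to the Cfd start site was 36634 bp away, to the Rbp4 window's peaks 42112 bp, and to the Retn intronic peak 142037 bp. Of the 9 eWAT peaks, 2 had a liver border within 100 bp of the centre, the Retn downstream site and the Prtn3 intron site, against 30.0% of all eWAT peaks, and 1 had one within 50 bp, against 24.5%. The eWAT peaks at the Adipoq and Cfd starts had none nearer than 1767 bp and 1723 bp. Of the 3 brain peaks only the one at Rfc4 had a liver border, with 5 of them within 100 bp, against 36.4% of all brain peaks with at least 1.

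In liver, the borders were densest around Rbp4. Its window held 34 borders, 18 on the plus and 16 on the minus strand, or 6.98 per 10 kb, more than 96.7% of all protein-coding genes. Of these, 17 lay within the gene body, 6 within 1 kb of the start, and 32 had a start of Rbp4 as their nearest. Adipoq had 27 borders (5.24 per 10 kb, above 92.0% of genes), Cfd 20 (4.78, above 90.0%), Retn 10 (2.26, above 66.4%) and Lep 7 (1.30, above 48.9%). The median over all genes was 1.35 per 10 kb. Most borders of the Rbp4 window (32 of 34) and all 7 of the Lep window thus had the named gene as nearest start. Those of Retn and Cfd mostly did not. Of the Retn borders 0 of 10 had Retn as nearest start and 0 lay in the gene body, while 1 of 20 did so for Cfd, 2 bp before its annotated end. For Adipoq the count was 15 of 27. At least 1 border with the gene as nearest start was found for 4 of 5 genes, against 80.2% of all genes. Such counts depend on neighbouring genes by definition. Other protein-coding genes reaching into the window numbered 0 for Lep, 1 for Adipoq, 2 for Rbp4, 3 for Retn and 5 for Cfd.

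**Figure D4:**
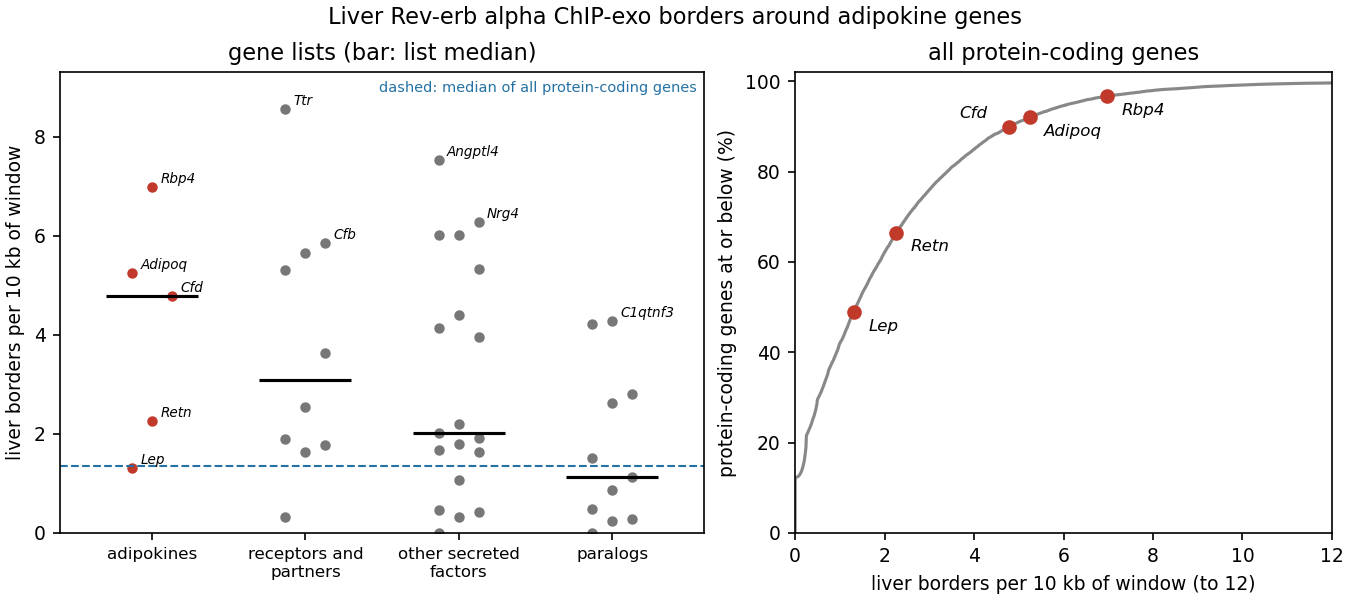
Liver borders per 10 kb of window, left for the 4 gene lists (each point a gene, bar the list median, dashed line the median of all genes) and right as the cumulative share of all protein-coding genes (vertical axis, %) with the adipokine genes as circles. Rbp4, with 6.98 per 10 kb, stands above 96.7% of genes, and Lep, with 1.30, near the median of 1.35.

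The single strongest border of the 5 windows was on the plus strand in the first intron of Rbp4, 399 bp after the start (chromosome 19, position 38199412), with a signal of 2.25, exceeded by 1.56% of all borders. It also lay 111 bp upstream of another annotated start of Rbp4. The next strongest of Rbp4 had signals of 1.15, 10025 bp after the start and beyond the gene end, and of 1.01 in an intron, 4110 bp after it. At Adipoq the strongest was a plus border in the first intron, 2878 bp after the start, with a signal of 2.03 (exceeded by 2.05%), followed by a minus border 2013 bp upstream of the start (1.31) and a minus border 16005 bp upstream (0.859). At Cfd the strongest 3 were 6268 bp upstream (1.34), 6162 bp upstream (1.08), both nearest to the Elane start, and 12893 bp upstream in an intron of Prtn3 (1.03). Lep had signals of at most 0.657, 33417 bp after the start, and of 0.609 and 0.596 in its 3′ untranslated part. Retn had at most 0.755 and 0.684, both in the untranslated part of Trappc5, and 0.733 at the downstream eWAT site. Against the list median of 0.471, the median signal was higher at Rbp4 (0.603), Cfd (0.551) and Adipoq (0.478) and lower at Lep (0.407) and Retn (0.400).

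Pairs of a plus border and a minus border 5 to 60 bp downstream were found for 4 of 5 genes, against 51.0% of all genes. A protein bounded on both strands can leave this arrangement. Pairs were joined by position alone, whatever the signal, so borders of separate sites can also form one. The median spacing over all pairs was 29 bp. Retn had 0, Cfd 1, Lep and Rbp4 2 each and Adipoq 4. The 24 bp pair in the first intron of Adipoq includes the border of signal 2.03. Whether its sequence recurs elsewhere in the genome, where short reads can be misplaced, was not checked. The 9 bp pair upstream of Rbp4 (signals 0.989 on plus and 0.557 on minus) was the only pair within 1 kb of a start of any of the 5 genes, a position found for 19.8% of all genes. Both are printed with the bases from the plus to the minus border in capitals. The Rbp4 sequence is read on the minus strand, from 177 bases before the start to the last base before it, and a TGACC, the reverse complement of GGTCA, stands 3 bases before its capitals. A second TGACC stands between the capitals and the start. The first is followed by A and the second by C, so neither is a match to AGGTCA on the other strand. How often border pairs, or stretches of this length, hold a GGTCA was not computed.
Adipoq border pair (chr16:23149467-23149531, + strand): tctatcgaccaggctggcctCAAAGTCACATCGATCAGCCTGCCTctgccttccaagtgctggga
Rbp4 upstream (chr19:38199812-38199988, - strand): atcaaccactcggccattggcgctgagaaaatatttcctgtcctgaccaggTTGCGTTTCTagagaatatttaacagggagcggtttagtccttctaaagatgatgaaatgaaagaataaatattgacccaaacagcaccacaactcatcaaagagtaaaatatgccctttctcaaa
The Cfd pair, 27 bp wide, lay 6104 bp upstream and 1563 bp before the Elane start. The Lep pairs, 36 and 49 bp wide, share their minus border in the 3′ untranslated part. With 10 bp on each side, both enclose the same E-box CACGTG, the element bound by the clock activators. Their border signals, 0.291 and 0.407 on plus and 0.378 on minus, lay below the list median of 0.471. The share of all pairs with an E-box was not computed. The other Rbp4 pair (7 bp) lay 10022 bp after the start, past the gene end. Of the other 3 Adipoq pairs, 2 share a minus border at the Rfc4 start and 1, 59 bp wide, lay 2043 bp upstream of Adipoq.

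The classical Rev-erbα element was not found in these windows' peaks. AGGTCA was matched within 50 bp of the centre in 0 of 9 eWAT peaks, against 13.9% of all eWAT peaks, and in 0 of 3 brain peaks, against 8.34%, counts that lie near those shares. The shorter GGTCA, searched after the sequences had been seen, was matched in 1 of 9, the Cfd start site, against 28.0%, and in 0 of 3 brain peaks, against 21.0%. Of the 15 motifs listed, 12 had no match in any of the 12 peaks. Over all peaks these 12 were matched in 0.0222% (NF1 palindrome) to 14.0% (C/EBP) in eWAT, and in 0.0187% to 8.34% in brain. The ROR element with its AT-rich flank, among them, was matched in 5.72% and 3.33%. At such shares, no match among so few peaks says little. TTGGC was matched in 4 of 9 eWAT peaks (both Adipoq sites, the Prtn3 intron site and the Ffar4 intron site), against 32.2%, and in 1 of 3 brain peaks, against 27.2%. The GC box GGGCGG was matched at the Ffar4 start site and the Prtn3 intron site, 2 of 9, against 2.43%, and the ETS motif CCGGAAG in the brain peak at Rfc4, 1 of 3, against 2.72%. These are matches of letters, not sites of a factor.

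Receptors and partners of these proteins had eWAT peaks in 6 of 10 windows, brain peaks in 6 and liver borders in 10, where all genes had shares of 28.7%, 41.5% and 87.7%. Adipor2, a receptor of adiponectin, had the best-ranked eWAT peak (rank 676, score 35.5, 1443 bp upstream of the start), and it overlapped a brain peak by 58 bp (brain rank 1821). Cdh13 (T-cadherin), which binds adiponectin multimers, had an eWAT peak deep in its introns (rank 2072) and a brain peak 81 bp upstream of its start (rank 5169). Adipor1 had a brain peak only (rank 6985), and the leptin receptor Lepr had neither. Cap1, reported in human cells to bind resistin, had a brain peak 71 bp after its start (rank 519), while its eWAT peak (rank 839) was nearest to Ppt1. For adipsin, complement C3 had an eWAT peak 33 bp upstream of its start (rank 5026, score 13.2). C3ar1, the receptor of the C3a fragment, had 1 peak in each tissue (eWAT rank 5026, brain rank 6985, the latter nearest to Necap1). Cfb, which adipsin cleaves, had neither an eWAT nor a brain peak. Ttr, which carries Rbp4 in plasma, had neither but the densest liver borders of all genes listed here (42 borders, 8.56 per 10 kb). Stra6, the membrane receptor of Rbp4, had its best peaks nearest to Ccdc33 (eWAT rank 3142, brain rank 1821).

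Of 19 other secreted factors of fat, eWAT peaks within 20 kb were listed for 11, brain peaks for 8 and liver borders for 18, where all genes had shares of 28.7%, 41.5% and 87.7%. The brain and liver counts lie near those shares. The longest windows were those of Fbn1 (247 kb), Nrg4 (147 kb) and Dpp4 (122 kb), and the others were at most 73.0 kb. Those with high eWAT ranks included Nrg4, an EGF-family hormone (rank 721, in an intron), Angptl4, an inhibitor of lipoprotein lipase (1878), and Fgf21 (2526, 67 bp upstream of the start). They also included Fbn1 (2813, in an intron but nearest to the start of Gm9913) and Agt, angiotensinogen (3142, nearest to Capn9). In brain the leading ones were Angptl4 (438), Nampt, an enzyme of NAD synthesis (640, 157 bp upstream of the start), and Agt (946). Rarres2 (1821, nearest to Lrrc61), Sfrp5 (1821) and Apln (2367) followed. An eWAT peak lay within 1 kb of a start of Rarres2, which encodes chemerin, and of Fgf21, and a brain peak within 1 kb of a start of Nampt, Angptl4 and Agt. The inflammatory cytokine genes Il6 and Tnf had neither an eWAT nor a brain peak. Of 11 paralogs, 6 had eWAT peaks, 5 had brain peaks and 10 had liver borders, against the same 28.7%, 41.5% and 87.7%, and the brain and liver counts again lie near the background. Of the 11, 8 belong to the C1qtnf family, which is related to adiponectin. The longest window was that of C1qtnf7 (143 kb). C1qtnf3 and C1qtnf9 had neither an eWAT nor a brain peak. The 6 with eWAT peaks were C1qtnf1 (eWAT rank 440), C1qtnf6 (967), C1qtnf7 (1127), C1qtnf5 (2526, nearest to Mcam), C1qtnf2 (3959) and C1qtnf12 (5848, nearest to Ube2j2). In brain the 5 were C1qtnf5 (4034), C1qtnf7 (5169), and C1qtnf1, C1qtnf2 and Retnlb (6985 each). The resistin relatives Retnla, Retnlb and Retnlg had no eWAT peak and 0, 2 and 1 liver borders. The median border density was 4.78 per 10 kb over the 5 adipokines, 3.08 over the receptors and partners, 2.01 over the other secreted factors and 1.13 over the paralogs.

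Among the genes of these 3 other lists, those most like each adipokine gene were picked by the same presence or absence of an eWAT peak, a brain peak and a liver border pair over the 3 lists and then by the nearest best eWAT rank. Window length did not enter the choice. For Adipoq (window 51.5 kb) these were Cdh13 (454 ranks apart, window 1081 kb), Agt and Stra6 (616 each). For Lep they were Agt and Stra6 (1884 each) and Rarres2 (2780). For Cfd they were C1qtnf6 (586), Fgf21 (973) and Dpp4 (2406), and for Rbp4 Dpp4 (479), C3 and Ccl2 (588 each). Retn shared its pattern with Fbn1 only (1608). The patterns are common ones, shared by 3062 protein-coding genes for Adipoq and Lep, 1506 for Cfd and Rbp4 and 1006 for Retn.

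At the edge of the windows, the outermost eWAT site counted was the Ffar4 start peak, 19530 bp from Rbp4, and the first not counted was a peak at the Stxbp2 start (score 13.2), 24703 bp from Retn. Next came a peak nearest to BC005764 (score 24.3), 24890 bp from Cfd. The outermost brain site counted was the Rfc4 start peak, 18699 bp from Adipoq, and the first not counted lay 30611 bp from Adipoq (score 21.8). Within 50 kb of the 5 gene bodies the highest-scoring peaks were outside the windows, at Arid3a 41771 bp from Cfd in eWAT (score 61.8) and at Ptbp1 36481 bp from Cfd in brain (score 76.4).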

How the data were processed

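Rev-erbα sites of eWAT, brain and liver were read from 3 deposited lists, 1 per group. Each peak carries the authors' score, with no unit given. Each liver border carries the authors' signal, of unstated scale, and the authors' p-value (0.00503 to 0.05), per the file headers. Per the submitters' processing notes the build was mm9, with Bowtie 0.12.8 for ChIP-seq, Bowtie 1.1.1 for ChIP-exo and HOMER for both, without roles; the sources used here do not state callers, thresholds, inputs or pooling. Sequencing depth is unknown, so no interval was computed. Scores are whole multiples of 1 step per list (1.01 in eWAT, 3.64 in brain, within 0.05); weak sites near the lowest step depend on depth and on the authors' threshold.

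All coordinates fitted the mm9 chromosome lengths. A site counted for a gene if it overlapped the gene body or 20 kb on either side, whichever gene was nearer. Distances are from peak centres to GENCODE vM1 starts, to the first annotated start of the gene unless a nearest start is named. Distances to a gene body run from the peak edge. Peaks were shared at an overlap of 1 bp or more. A plus border was paired with the next minus border if that lay 5 to 60 bp downstream. Motifs, searched on both strands, were AGGTCA, the RevDR2, DR1 and ROR elements, the general and the palindromic C/EBP motif, the E-box CACGTG, the D-box, TTGGC and its NF1 palindrome, FOXA (TGTTTAC), HNF6 (ATTGATT), HNF4, the GC box GGGCGG and ETS (CCGGAAG). The RevDR2, DR1 and ROR elements contain GGTCA, and the NF1 palindrome contains TTGGC. Counts were read against shares over all genes or peaks; no test was made. O3far1 was named Ffar4 and Fam132a C1qtnf12 from RefSeq names (GRCm38, names only). Sequences are from the mm9 genome. The counting steps were checked on simulated sites with Python 3.11.15 and pysam 0.24.0.

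The members and gene lists were chosen with earlier results of these data known. All 5 members are described with every peak and their 3 strongest borders and all pairs, and of each other list up to 6 genes by best rank in eWAT and in brain, of which 1 is not reported here; genes named beyond this (Lepr, Ttr, Cfb, Il6, Tnf, C1qtnf3, C1qtnf9, Rarres2 in eWAT and the resistin relatives) were chosen after their values were seen. The other 19 samples (13 groups) were not analysed here.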

Additional observations from a re-analysis of the deposited data

How the results depend on the processing

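Of 29 recomputed values for 7 results, 4 moved by over 1.5 times or to or from 0. Within 5 kb of the gene body 3 members had an eWAT peak, against 5 within 20 kb, since the nearest peaks of Lep and Rbp4 lie 8000 bp and 9231 bp away. With peaks at or above the list median, 0 members kept a brain peak, against 2. Within 50 bp of the centre 1 member eWAT peak had a liver border, against 2 within 100 bp. With the shorter GGTCA, an alternative chosen after seeing the data, 1 peak had a match, against 0. All 5 members had an eWAT peak within 10 kb, within 50 kb and within 20 kb of a start, and 4 with peaks at or above the list median or with the member as nearest start. No paired analysis was possible because each group has 1 list with no value per replicate, and for the same reason no replicate could be left out. Depth is unknown, so a gene without a listed peak may hold a weaker site.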
